A study of Homo sapiens with 6 samples.

Results

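Among the genes of PC3 cells, 99 of the 57736 in the deposited table fell to 25% or less of their control level after silencing of Mic60, and these 99 genes are described here. Mic60, encoded by IMMT, is a mitochondrial inner membrane protein. Counts were divided by the library's total and multiplied by 1000000 (CPM). A gene was a member when its mean in siCTRL libraries was at least 5 CPM, its mean in siMic60 libraries was at most 25% of that, and every siMic60 library lay below every siCTRL library. The values alone picked 120 genes. Of these, 14 had no gene symbol, and 7 with symbols were left out by name, IMMT among them. The members were thus chosen by their siMic60 and siCTRL levels, and those levels are given below as a description, without a test.

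PC3 is an established human prostate cancer cell line that grows without androgen receptor signalling. RNA was read by 3′ mRNA sequencing (QuantSeq) in 3 libraries labelled siMic60, meaning cells given small interfering RNA against Mic60, and 3 labelled siCTRL, given a control small interfering RNA. The labels also call the groups Mic60 KO and WT, and do not say whether the libraries came from separate cultures. The paper states in general that its data rest on 3 or more independent biological replicates. It does not say so of these libraries by name, and spread between them may therefore be technical. Total counts were 6644495 to 8779877 in siMic60 and 7714837 to 8396244 in siCTRL. The libraries numbered 1 stood apart from the others of their group in many members, as described below. IMMT itself was at 5.72, 7.09 and 8.43 CPM in siMic60, against 88.4, 94.5 and 92.3 CPM in siCTRL (log2 fold change -3.62, SE 0.15, edgeR adjusted p = 4.38e-10), so 7.72% of its level was left. KLK3, the prostate-specific antigen gene, had 0 counts in all 6 libraries, and the epithelial markers EPCAM, KRT8, KRT18 and KRT19 were read in every library. EPCAM, KRT18 and KRT19 were lower in siMic60 by edgeR, with log2 fold changes of -0.75 (SE 0.13), -0.53 (SE 0.15) and -0.94 (SE 0.13), and KRT8 was higher, at 0.62 (SE 0.13).

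Mic60 is the core of the MICOS complex, which holds the cristae of the inner mitochondrial membrane in shape at their junctions. Mitochondria signal to the nucleus through calcium, reactive oxygen species and metabolites, and cells with damaged mitochondria are known to alter the transcription of many nuclear genes. A small interfering RNA can in addition lower other transcripts whose 3′ untranslated region (UTR) pairs with the start of its guide strand.

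The 99 members had 18.8% of their siCTRL level left at the median, with a highest value of 24.9%. In bulk RNA, fewer cells that express a gene and less RNA per cell cannot be told apart. The level left was under 10% for 15 members, 10% to 15% for 17, 15% to 20% for 24 and 20% to 25% for 43. Their siCTRL means ran between 5.11 and 480 CPM with a median of 15.1 CPM, and 33 of them lay between 5 and 10 CPM, while 8 lay above 100 CPM. For 96 members the lowest siCTRL library was over 2 times the highest siMic60 library, and for 21 it was over 5 times. All 99 were among the 14653 genes with enough counts to be tested. Of those 14653 genes, 225 (1.54%) had a siMic60 mean at most 25% of the siCTRL mean, 4006 (27.3%) had every siMic60 library below every siCTRL library, and 2614 (17.8%) were called lower by edgeR's quasi-likelihood test at an adjusted p under 0.05. All 99 members were called lower too, which their selection made likely and from which nothing is read.

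**Figure D1:**
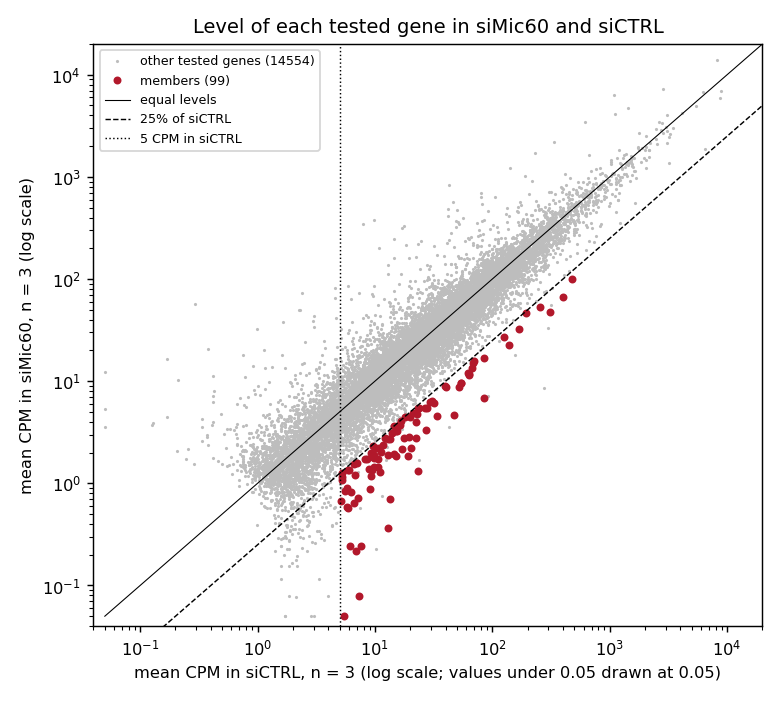
Mean CPM of each tested gene in siMic60 (vertical, log scale) against siCTRL (horizontal, log scale), n = 3 libraries each, with the 99 members in red and the other tested genes in grey. The members lie below the dashed line at 25% and to the right of the dotted line at 5 CPM. Of them, 43 had 20% to 25% left, and 33 had siCTRL means between 5 and 10 CPM.

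The members just inside the ceiling were KLHL4 with 24.9% left, DLG5-AS1 with 24.7% and DNAH5 with 24.7%. The genes just outside it were TUBA1A with 25.2%, NXPE3 with 25.3% and TP53I11 with 25.4%. At the other edge, the lowest siCTRL means belonged to PRR29 at 5.11 CPM, WASIR2 at 5.26 CPM and ITGB6 at 5.28 CPM. The ceiling and the floor both cut through a continuous range of values, and the list has no natural border there.

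By annotation, 86 members were protein coding (86.9%, against 84.0% of the genes tested) and 4 were long intergenic RNAs (4.04%, against 3.59%). Processed transcripts gave 3 members (3.03%, against 0.826%). Small nucleolar RNAs gave 2 of the 17 tested, and small Cajal body RNAs 1 of the 4 tested. The remaining members were 2 pseudogenes (EFCAB15P and FAM21FP) and TRBC2, a T cell receptor constant segment. The groups by known function used below were formed after the members were known, so they order the text and were not tested.

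Transmitter receptors and ion channels gave 4 members, with 3.99% to 18.1% left. KCNMB4, a regulatory subunit of the BK potassium channel, was at 0.151, 0.473 and 0.114 CPM in siMic60, against 7.62, 5.57 and 5.29 CPM in siCTRL. GABBR2, the subunit of the GABA-B receptor that couples to G proteins, was at 3.91, 6.50 and 3.53 CPM in siMic60, against 50.02, 38.1 and 52.6 CPM in siCTRL. CNIH2 and CACNG7, both auxiliary subunits of AMPA receptors, had 12.8% and 18.1% left. The groups did not overlap for any of the 4, and the smallest siCTRL value of KCNMB4 was over 10 times its largest siMic60 value. The share of KCNMB4 left was 3.99%, and 2.15% without the siMic60 library numbered 2. Without either of the other siMic60 libraries the share was higher than 3.99%.

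Synaptic and neuronal differentiation proteins gave 6 members, with siCTRL means of 5.29 to 23.3 CPM. CEND1, which takes neuronal precursors out of the cell cycle, was at 0.151, 0.236 and 0.342 CPM in siMic60, against 10.1, 6.09 and 6.67 CPM in siCTRL. SYT11, a synaptotagmin of vesicle traffic, was at 1.51, 1.42 and 1.03 CPM in siMic60, against 28.8, 21.4 and 19.6 CPM in siCTRL. Both were read by few counts in the siMic60 libraries. SYT17, another member of the synaptotagmin family, was at 1.05, 3.90 and 1.71 CPM in siMic60, against 10.5, 11.4 and 8.56 CPM in siCTRL. The share left was 21.9% for SYT17, against 5.65% for SYT11. Without the siMic60 library numbered 2 the share of SYT17 was 13.6%, and without either of the others it was higher than 21.9%. SYT17 was among the 31 members that did not meet the criteria whichever single library was left out. TAGLN3, a neuronal actin-binding protein, PACSIN1, an adaptor of synaptic endocytosis, and ADAM22, a receptor for the secreted protein LGI1 without protease activity, had 14.6%, 22.5% and 21.7% left.

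The cytoskeleton and its motors gave 9 members, of which MAP6 had the smallest share left. MAP6, which stabilises neuronal microtubules against cold, was at 0.301, 0.118 and 0.228 CPM in siMic60, against 10.5, 4.41 and 5.92 CPM in siCTRL. FAM107A, an actin-associated protein induced by stress, was at 5.42, 6.62 and 8.54 CPM in siMic60, against 113, 70.3 and 72.5 CPM in siCTRL. FAM107A thus combined a high control level (85.1 ± 23.8 CPM, SD, n = 3) with only 8.06% left. KIF5C, the neuronal heavy chain of kinesin-1, was at 2.41, 2.36 and 0.797 CPM in siMic60, against 24.2, 17.5 and 16.0 CPM in siCTRL. MAP7D2, a microtubule-associated protein that recruits kinesin-1, was at 2.11, 1.65 and 2.73 CPM in siMic60, against 21.8, 14.0 and 15.6 CPM in siCTRL. For all of these the siCTRL library numbered 1 was the highest of its group. SPTB (beta spectrin) had 10.1% left, CYFIP2 of the WAVE actin regulatory complex 17.1%, the syntrophin SNTB1 17.6%, MYH15, a myosin heavy chain, 20.3% and DNAH5, a heavy chain of axonemal dynein, 24.7%.

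Adhesion, guidance and matrix proteins gave 13 members, and the deepest reductions of the list lay here. PCDHGA1, a gamma-protocadherin of cell adhesion, had 0 counts in all 3 siMic60 libraries and 71, 17 and 44 counts in the siCTRL libraries. Against a floor of 3 counts over the group, this is at least 43.7-fold lower. Genes of the protocadherin gamma cluster share their 3′ exons, and reads of a 3′ assay that fall there cannot be assigned to 1 of them with certainty. COL2A1, the chain of cartilage collagen II, had 0, 2 and 0 counts in siMic60, against 102, 27 and 49 counts in siCTRL, with 1.08% left, a share that was 0% to 1.63% when any single library was left out. Both genes were several times higher in the siCTRL library numbered 1 than in the one numbered 2.

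THSD7A, a membrane protein with thrombospondin repeats, was at 0.452, 0.118 and 1.37 CPM in siMic60, against 8.81, 5.96 and 5.04 CPM in siCTRL. Its share left was 9.77%, or 4.31% without the siMic60 library numbered 3. Without either of the other siMic60 libraries the share was higher than 9.77%. EPHB6, an ephrin receptor whose kinase domain is inactive, was at 15.1, 15.8 and 20.2 CPM in siMic60, against 87.8, 80.9 and 88.5 CPM in siCTRL. MUC5AC, a gel-forming secreted mucin, was at 11.6, 16.3 and 17.1 CPM in siMic60, against 88.5, 55.2 and 63.1 CPM in siCTRL. ITGB6, the epithelial integrin subunit that pairs with ITGAV and activates latent TGF-beta, was lowly expressed, at 0.903, 1.54 and 0.797 CPM in siMic60, against 5.12, 5.18 and 5.54 CPM in siCTRL. Among the others were the guidance cue SEMA5A with 12.4% left, PLXNA4, a plexin that serves as a semaphorin receptor, with 20.7%, LOXL4, an enzyme that cross-links collagen, with 18.5%, MMP1, the interstitial collagenase, with 21.5%, and ITGA7, a laminin-binding integrin subunit, with 21.2%.

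Kinases and other intracellular signalling proteins gave 10 members. MAP4K4, a kinase upstream of the JNK pathway, had the highest siCTRL mean of the list, and was at 118, 87.6 and 94.8 CPM in siMic60, against 393, 512 and 535 CPM in siCTRL. TRIB2, a pseudokinase, was at 21.8, 24.1 and 36.1 CPM in siMic60, against 124, 123 and 128 CPM in siCTRL. Both genes were well read in every library, and their groups lay far apart. CAMK2B, a subunit of calcium/calmodulin-dependent kinase II, had 20.2% left, RPS6KA2, a ribosomal S6 kinase, 20.9%, RGS17, which switches off G protein signalling, 19.5% and PLCH2, a phospholipase C, 12.4%.

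Secreted signals and their inhibitors gave 5 members, none under 10% left. HHIP, which binds and blocks hedgehog ligands, had a mean of 1.85 ± 0.304 CPM in siMic60 and 15.1 ± 2.23 CPM in siCTRL (SD, n = 3 each). WNT4 had 13.2% left, and TRABD2B, a protease that inactivates Wnt ligands, had 20.7%. PDGFB, the B chain of platelet-derived growth factor, was at 5.27, 6.50 and 6.95 CPM in siMic60, against 16.9, 35.0 and 35.6 CPM in siCTRL. Its siCTRL library numbered 1 lay between the siMic60 libraries and the other siCTRL libraries, and the groups still did not overlap. CLEC11A, a secreted growth factor of haematopoietic and bone progenitors, had 23.7% left.

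Transcription factors and RNA-binding proteins gave 6 members. CPEB1, which controls polyadenylation and translation of mRNAs, had 9.79% left, CITED4, a coactivator that binds CBP and p300, 13.5%, and NFATC2, a calcineurin-dependent factor, 17.6%. NFATC2 was at 7.53, 10.6 and 10.5 CPM in siMic60, against 58.4, 52.0 and 52.6 CPM in siCTRL. ZNF467, SALL2 and BACH2, a transcriptional repressor, had 20.6%, 22.9% and 23.1% left.

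Enzymes, transporters and binding proteins gave 15 members. NOX5, a calcium-activated NADPH oxidase that makes superoxide, was at 20.02, 56.7 and 64.7 CPM in siMic60, against 563, 189 and 175 CPM in siCTRL. NOX5 had the most unequal control values of the list, and its share left was 15.2%, against 25.9% without the siCTRL library numbered 1. SORL1, a receptor that sorts cargo between the Golgi and endosomes, was at 14.9, 28.7 and 23.6 CPM in siMic60, against 144, 139 and 131 CPM in siCTRL. ATP9A, a lipid flippase of endosomes, was at 27.2, 40.4 and 28.8 CPM in siMic60, against 224, 147 and 134 CPM in siCTRL. FABP4, the fatty acid binding protein of adipocytes, was at 15.1, 20.9 and 11.05 CPM in siMic60, against 64.3, 75.8 and 67.7 CPM in siCTRL. SORL1 and FABP4 were even across the control libraries, whereas ATP9A was highest in the one numbered 1. The steroid-oxidising enzyme HSD17B2, the retinoid carrier CRABP1 and the calprotectin subunit S100A9 had 19.2%, 17.6% and 18.8% left.

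Other coding members with high control levels included C2CD2, a protein with a C2 domain, at 59.9, 75.9 and 62.1 CPM in siMic60, against 487, 372 and 336 CPM in siCTRL. AHNAK2, a giant scaffold protein, was at 43.5, 45.3 and 50.001 CPM in siMic60, against 215, 175 and 188 CPM in siCTRL. Both had little spread in siMic60. TMEM221 was at 3.16, 6.62 and 6.49 CPM in siMic60, against 38.1, 23.1 and 21.8 CPM in siCTRL. TMEM8B was at 5.87, 6.38 and 4.21 CPM in siMic60, against 31.8, 21.4 and 26.8 CPM in siCTRL. Near-identical copies elsewhere in the genome make TMEM191C (2.11, 3.19 and 1.71 CPM in siMic60, against 10.1, 9.85 and 8.81 CPM in siCTRL) and the pseudogene FAM21FP (1.35, 2.48 and 2.16 CPM in siMic60, against 9.17, 7.52 and 10.8 CPM in siCTRL) uncertain.

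TRBC2, the constant segment of the T cell receptor beta chain, was at 44.7, 55.6 and 57.7 CPM in siMic60, against 259, 260 and 249 CPM in siCTRL. The other T cell genes looked at did not accompany it. CD3D and CD3E, which encode chains of the T cell receptor complex, and TRBC1, its near-identical copy, had 0 counts in all 6 libraries, and CD3G had 0 in siMic60 and 2 counts in 1 siCTRL library. The 8 leukocyte markers together had 0.911 to 2.60 CPM in siMic60 and 1.31 to 2.33 CPM in siCTRL, with 4 of the 8 at 0 in every library. EPHB6 is the next tested gene on the chromosome and is a member with nearly the same share left, 19.8% against 20.6% for TRBC2. S100A9 likewise lacked its usual partner, since S100A8 had 0 counts in each siMic60 library and 2, 3 and 2 counts in the siCTRL libraries.

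**Figure D2:**
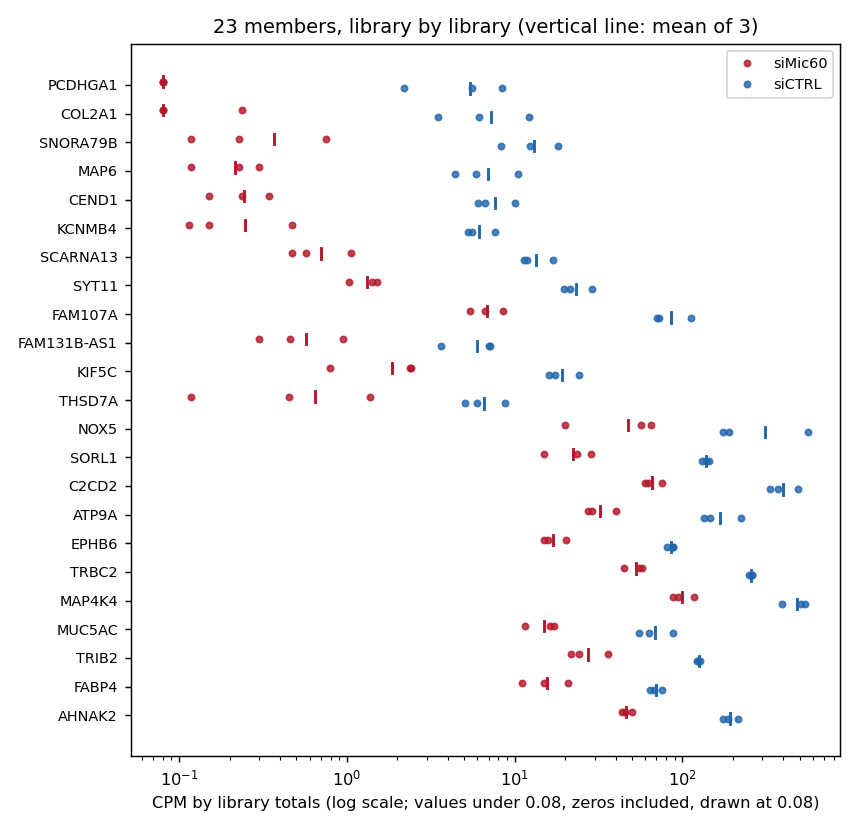
CPM (log scale) of 23 members, those with the lowest share left or the highest siCTRL mean, ordered by share left, with the 3 siMic60 libraries in red above the 3 siCTRL libraries in blue and a vertical line at each mean. The groups are apart for each gene, and the siCTRL points spread most for NOX5, PCDHGA1 and COL2A1.

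The non-coding members were compared with the genes that overlap or face them, whose own values the selection did not use. The counting is not stated to use strand, so reads of a gene and of its antisense partner cannot be told apart. FAM131B-AS1 was at 0.301, 0.946 and 0.456 CPM in siMic60, against 7.03, 7.13 and 3.65 CPM in siCTRL, and FAM131B was lower as well (log2 fold change -1.78, SE 0.28, edgeR adjusted p = 0.000163). SSTR5-AS1 had 23.3% left, and SSTR5, a somatostatin receptor, was lower at few counts (log2 fold change -1.63, SE 0.52, edgeR adjusted p = 0.0245, and 0.0056 to 0.105 over the alternatives).

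SOX9-AS1 had 22.9% left, while SOX9, a transcription factor of chondrocytes and prostate epithelium, did not pass the test at 177, 131 and 174 CPM in siMic60, against 187, 198 and 205 CPM in siCTRL (log2 fold change -0.24, SE 0.13, edgeR adjusted p = 0.159). DLG5-AS1 had 24.7% left, and DLG5, a scaffold of cell polarity, had a log2 fold change of 0.29 (SE 0.13, edgeR adjusted p = 0.0982). Over the alternative settings and left-out libraries the adjusted p of DLG5 ran between 0.0231 and 0.312, so whether it was higher depended on the libraries used.

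The small non-coding RNAs lie inside other genes. SCARNA13 was at 1.05, 0.473 and 0.569 CPM in siMic60, against 11.4, 11.8 and 16.9 CPM in siCTRL, and its host SNHG10 did not pass (log2 fold change -0.82, SE 0.31, edgeR adjusted p = 0.0539, and 0.0202 to 0.547 over the alternatives). SNORA12 was at 9.93, 5.67 and 10.7 CPM in siMic60, against 35.3, 38.1 and 46.8 CPM in siCTRL, and its host CWF19L1 did not pass (log2 fold change 0.22, SE 0.16, edgeR adjusted p = 0.316). SNORA79B was at 0.753, 0.118 and 0.228 CPM in siMic60, against 8.34, 12.4 and 18.1 CPM in siCTRL. It had 2.82% left, and 1.33% without the siMic60 library numbered 1. Without either of the other siMic60 libraries the share was higher than 2.82%. Its host CCNB1IP1 had a log2 fold change of 0.01 (SE 0.14, edgeR adjusted p = 0.980). These RNAs carry no poly(A) tail in their mature form, which a 3′ mRNA assay primes on, and what was read from them was not tested.

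The binding partners of several members were not members and could be tested. GABBR1, the ligand-binding subunit that pairs with GABBR2, was at 7.53, 8.75 and 7.74 CPM in siMic60, against 14.2, 16.6 and 13.2 CPM in siCTRL (log2 fold change -0.81, SE 0.19, edgeR adjusted p = 0.0039). ITGAV, which pairs with ITGB6, was lower as well (log2 fold change -0.77, SE 0.16, edgeR adjusted p = 0.0019). ITGB1, which pairs with ITGA7, went the other way, at 1013, 879 and 1021 CPM in siMic60, against 428, 478 and 476 CPM in siCTRL (log2 fold change 1.13, SE 0.11, edgeR adjusted p = 1.42e-06).

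PDGFA, the A chain that can dimerise with PDGFB, was at 87.7, 69.1 and 84.7 CPM in siMic60, against 23.2, 23.3 and 23.7 CPM in siCTRL (log2 fold change 1.84, SE 0.13, edgeR adjusted p = 8.76e-08). The A and B chains of the growth factor thus moved in opposite directions in these libraries. Of the hedgehog pathway genes beside HHIP, the receptor PTCH1 and the factor GLI2 had log2 fold changes of 0.22 (SE 0.29) and 0.19 (SE 0.20), and neither passed (edgeR adjusted p = 0.583 and 0.509). SLC7A9, the usual partner of the amino acid transporter subunit SLC3A1, was near 0 and not tested.

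Relatives of the members were taken as tested genes with the same symbol stem. Over the stems that name a gene family, 444 relatives were tested, of which 114 were lower in siMic60 (25.7%, against 17.8% of all genes) and 62 were higher (14.0%, against 2588 genes or 17.7% of all), with a median log2 fold change of -0.09 beside 0.00 over all genes. These include the ATP and RPS stems, which join genes of unlike function (127 tested, 26 lower and 15 higher), and COL1A1, whose call was fixed by the criteria. Without them, a setting chosen after seeing the data, 87 of 316 were lower (27.5%) and 47 higher (14.9%). The remaining stems still pair antisense members such as DLG5-AS1 and SOX9-AS1 with coding genes. Antisense RNAs such as HHIP-AS1 count among the relatives too, so these shares are not of related genes alone. Over all stems, unrelated genes that share letters included, 1817 relatives gave 331 lower (18.2%) and 283 higher (15.6%). That count also holds small non-coding RNAs. All 5 tested relatives of SCARNA13 by the SCARNA stem were lower, with a median log2 fold change of -1.52. Of 7 relatives by the SNORA stem, 2 were lower and 0 higher. Reads shared between close copies could add to the count of lower relatives, and their part was not tested. Most relatives of the members did not pass the test in either direction.

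Collagens had 9 lower relatives of 20, with 1 higher, COL12A1. This count sets aside COL1A1, which met the value criteria and was left out by name, so its level is a description. COL5A1, a fibril-forming collagen chain, was at 28.9, 24.0 and 30.4 CPM in siMic60, against 107, 83.2 and 79.6 CPM in siCTRL (log2 fold change -1.65, SE 0.15, edgeR adjusted p = 1.22e-06). COL18A1 and COL6A3, chains of basement membrane and microfibrillar collagen, had log2 fold changes of -1.27 (SE 0.15) and -0.92 (SE 0.13). COL2A1 itself was at 7.27 CPM in siCTRL, a level well under that of COL5A1.

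The AMPA receptor auxiliary subunits had several lower relatives. Both called relatives of CACNG7, of 3 tested, were lower, CACNG4 with a log2 fold change of -3.42 (SE 0.49) at few counts and CACNG6 with -1.17 (SE 0.30). The edgeR adjusted p of CACNG6 was 0.00646, and it was 0.0502 with both libraries numbered 1 left out. CNIH1 and CNIH3, cargo receptors related to CNIH2, were also lower, with log2 fold changes of -1.30 (SE 0.12) and -1.31 (SE 0.18), of 3 relatives tested. CNIH1 was at 80.4, 72.2 and 72.4 CPM in siMic60, against 174, 192 and 210 CPM in siCTRL, and is a family member known from most cell types.

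Signalling families were mixed. Among 8 Wnt ligands beside WNT4, 4 were lower and WNT9A was higher (log2 fold change 0.82, SE 0.12), with WNT7B at -1.45 (SE 0.19), WNT7A at -1.41 (SE 0.18) and WNT10A at -2.34 (SE 0.39) on the log2 scale. Among 11 RGS genes beside RGS17, 5 were lower, led by RGS10 (log2 fold change -1.30, SE 0.15), and 2 were higher, RGS2 (log2 fold change 0.92, SE 0.14) and RGS4. Of 4 tested EPHB genes beside EPHB6, EPHB2 and EPHB4 were lower (log2 fold changes -0.80, SE 0.15, and -0.54, SE 0.12). CRABP2, the relative of CRABP1, was lower at 64.4, 70.1 and 86.3 CPM in siMic60, against 197, 184 and 195 CPM in siCTRL (log2 fold change -1.33, SE 0.13, edgeR adjusted p = 2.11e-06).

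Other relatives moved against the member. NFATC3 was higher at 37.9, 35.5 and 27.9 CPM in siMic60, against 9.41, 11.3 and 10.6 CPM in siCTRL (log2 fold change 1.75, SE 0.17, edgeR adjusted p = 1.85e-06), while NFATC2 is a member. MMP13, a collagenase like MMP1, was higher (log2 fold change 2.48, SE 0.19, edgeR adjusted p = 1.96e-07), while the gelatinase MMP9 was lower at few counts (log2 fold change -3.19, SE 0.47, edgeR adjusted p = 0.000109). CMTM6, a relative of CMTM4, was higher (log2 fold change 2.05, SE 0.13). CPEB2 and CPEB3 were higher with log2 fold changes of 1.25 (SE 0.29) and 1.198 (SE 0.28), whereas CPEB4 was lower by less, at -0.53 (SE 0.13), and CPEB1 is a member. BACH1 was higher too (log2 fold change 0.84, SE 0.25, edgeR adjusted p = 0.0182, and 0.0022 to 0.155 over the alternatives).

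**Figure D3:**
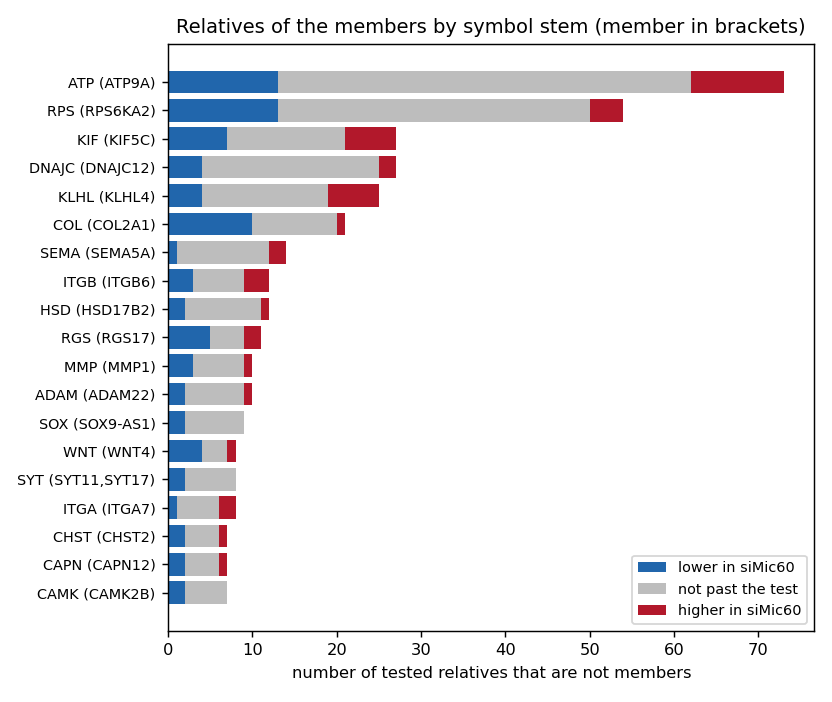
Tested relatives of the members by symbol stem, for stems with at least 7 relatives, as the number lower in siMic60 (blue), not past the test (grey) and higher (red) by edgeR at an adjusted p under 0.05. Collagens (COL) show 10 of 21 lower, COL1A1 included, and several stems hold both colours; ATP and RPS stems join genes of unlike function.

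Of the gene lists drawn up for PC3 cells and mitochondria, only that of TGF-beta targets held a member, ITGB6. Its 13 other tested genes were split, 4 higher and 3 lower, against 17.7% and 17.8% of all genes. The lists closest to the members' functions held genes of both directions, and those of channels and proteoglycans leaned lower. Of 16 tested calcium and ion channel genes 3 were higher and 7 lower, with a median log2 fold change of -0.34 beside 0.00 over all genes. ANO1, a calcium-activated chloride channel, was among the lower (log2 fold change -0.96, SE 0.17). Of 20 integrin and adhesion genes 4 were higher and 4 lower, and of 26 collagen and matrix genes 6 were higher and 5 lower. Of 16 proteoglycan and glycosyltransferase genes 4 were higher and 7 lower (median log2 fold change -0.27). Lists further from those functions leaned as well. Fatty acid synthesis had 7 lower and 2 higher of 11 tested, and YAP and TEAD targets 0 lower and 9 higher of 14. ENO2, the neuronal enolase, was the 1 neuroendocrine marker called, of 2 tested, and was lower at 73.4, 71.9 and 75.6 CPM in siMic60, against 209, 134 and 132 CPM in siCTRL (log2 fold change -1.05, SE 0.17, edgeR adjusted p = 0.000228). The 2 endothelial markers in the table had 0 counts, and the fibroblast markers summed to 2.26 to 5.79 CPM in siMic60 and 3.50 to 9.41 CPM in siCTRL, with 1 of 2 tested lower.

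The nearest tested neighbours of the members on the chromosome were 192 genes. Of these, 43 were lower (22.4%, against 17.8% of all genes) and 34 higher (17.7%, against 17.7%). Some of these neighbours overlap or face a member, such as FAM131B beside FAM131B-AS1, and may share reads with it. Members sat next to each other in 3 places, as ATP9A with NFATC2, CREG2 with MAP4K4, and EPHB6 with TRBC2. The members were otherwise spread over the genome.

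The library numbered 1 in each group stood apart in the members. It was the lowest of the siMic60 libraries for 54 of 99 members (54.5%) and the highest of the siCTRL libraries for 63 (63.6%). Among 11374 other tested genes at 5 CPM or more in siCTRL, the same shares were 33.2% and 33.3%. Among 667 other genes with less than 50% left and no overlap they were 49.3% and 59.7%, close to the members' own. The siCTRL library numbered 1 was also the lowest control library for 45.8% of the 11374 genes, against 16.2% of the members. Over all tested genes it differed more from the other siCTRL libraries (chi-square per degree of freedom 10.8 and 13.5) than these did from each other (3.54). The siCTRL library numbered 1 thus stood apart beyond the members too. By the same measure the siMic60 library numbered 1 did not, at 10.06 and 8.09 against the other siMic60 libraries. These differed from each other by 10.11. The summed level of the members was 639, 767 and 778 CPM in siMic60, against 4546, 3647 and 3698 CPM in siCTRL, the highest value being that of the siCTRL library numbered 1.

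**Figure D4:**
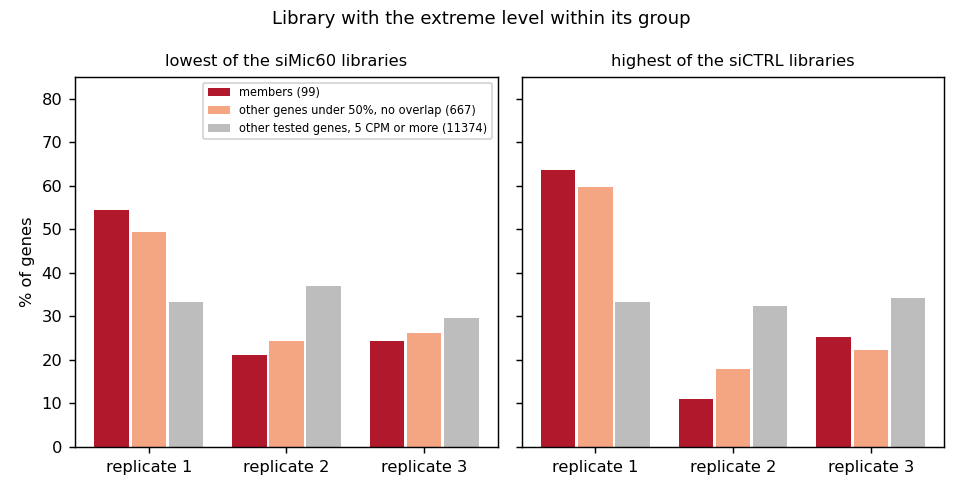
Share of genes (vertical, %) for which each replicate is the lowest siMic60 library (left) or the highest siCTRL library (right), for the 99 members, for 667 other genes with under 50% left and no overlap, and for 11374 other tested genes. Replicate 1 takes 54.5% and 63.6% of the members, against 33.2% and 33.3% of other tested genes.

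Without the siMic60 library numbered 1, 84 of the 99 members still met the criteria, without the siCTRL library numbered 1, 79 did, and without both, a setting chosen after seeing the data, 67 did. Leaving out either of the other siMic60 libraries kept 94 and 96, and either of the other siCTRL libraries 99 and 97. In all, 68 members met the criteria whichever single library was left out, and COL2A1, PCDHGA1, NOX5, FABP4, MUC5AC and AHNAK2 were among the 31 that did not.

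Sequence features that the selection did not use were taken from RefSeq and GENCODE. The promoter windows, 250 bases before to 50 bases after each start, were found for 68 of the 99 members (68.7%). This is under the 80% needed for a comparison of the whole set, so a comparison of promoter composition would be void and is not given. The windows of the matched members with the lowest share left among those at 20 CPM or more in siCTRL are shown as examples, with CpG dinucleotides, the sites of DNA methylation, in capitals (RefSeq, GRCh38.p14, 5′ to 3′ on the gene's strand).
SYT11, chr1:155859317-155859616, plus strand: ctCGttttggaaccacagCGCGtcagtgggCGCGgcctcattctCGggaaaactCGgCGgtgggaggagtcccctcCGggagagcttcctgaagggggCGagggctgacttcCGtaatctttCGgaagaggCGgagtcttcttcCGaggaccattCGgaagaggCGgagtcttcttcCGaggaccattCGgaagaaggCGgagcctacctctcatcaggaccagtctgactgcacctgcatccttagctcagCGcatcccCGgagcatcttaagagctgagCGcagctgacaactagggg
FAM107A, chr3:58627561-58627860, minus strand: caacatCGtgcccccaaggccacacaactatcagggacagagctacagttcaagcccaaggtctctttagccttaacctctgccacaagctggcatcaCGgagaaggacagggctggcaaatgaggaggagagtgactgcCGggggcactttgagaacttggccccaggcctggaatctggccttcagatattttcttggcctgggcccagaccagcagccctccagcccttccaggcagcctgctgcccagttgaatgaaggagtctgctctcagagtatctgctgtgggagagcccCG
GABBR2, chr9:98708886-98709185, minus strand: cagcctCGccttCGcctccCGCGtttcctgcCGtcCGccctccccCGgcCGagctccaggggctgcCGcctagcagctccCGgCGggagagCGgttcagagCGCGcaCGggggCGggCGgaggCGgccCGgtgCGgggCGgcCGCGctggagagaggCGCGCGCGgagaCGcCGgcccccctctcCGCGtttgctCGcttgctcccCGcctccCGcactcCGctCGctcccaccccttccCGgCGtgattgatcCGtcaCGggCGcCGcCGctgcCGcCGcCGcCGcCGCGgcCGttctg
The promoters differ widely in this respect. FAM107A held 4 CpG dinucleotides and 58.0% G+C, an observed CpG count 0.159 times that expected from its C and G content. SYT11 held 22 with 60.0% G+C and a ratio of 0.818, and GABBR2 held 50 with 79.0% G+C and a ratio of 1.08. All 3 genes had less than 10% of their siCTRL level left.

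A 3′ UTR of at least 50 bases could be read for 86 members and 12101 other tested genes, taking the longest in GENCODE 29. The UTRs of the members had a median length of 1760 bases against 1417 bases in the others, and a median G+C of 47.9% against 42.5%. Within the siCTRL range of 5.95 to 72.5 CPM, the medians were 1614 and 1506 bases, and 47.0% and 42.2% G+C, for 70 members and 7150 others. Within this range of expression the members' UTRs thus kept the higher median G+C, and the difference in length was smaller. Levels inside the range were not matched further.

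The G+C content moved with the outcome across other genes too. The other tested genes at 5 CPM or more were divided into 4 equal bins by UTR G+C. The share called lower was 15%, 19.4%, 20.6% and 23.3% from the poorest to the richest bin. The share called higher fell in the same order, at 23.4%, 20.6%, 18.8% and 18.1%. The median log2 fold change of these genes was 0.09, 0.01, -0.02 and -0.04. The bins held 12, 20, 23 and 31 of the members. The median log2 ratio of the siMic60 library numbered 1 to the other siMic60 libraries was -0.02, -0.01, 0.01 and 0.04 over the same bins. The corresponding ratios of the siCTRL library numbered 1 covered a wider range, at -0.18, -0.09, -0.00 and 0.05. The part of base composition in the members' reductions was not tested.

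**Figure D5:**
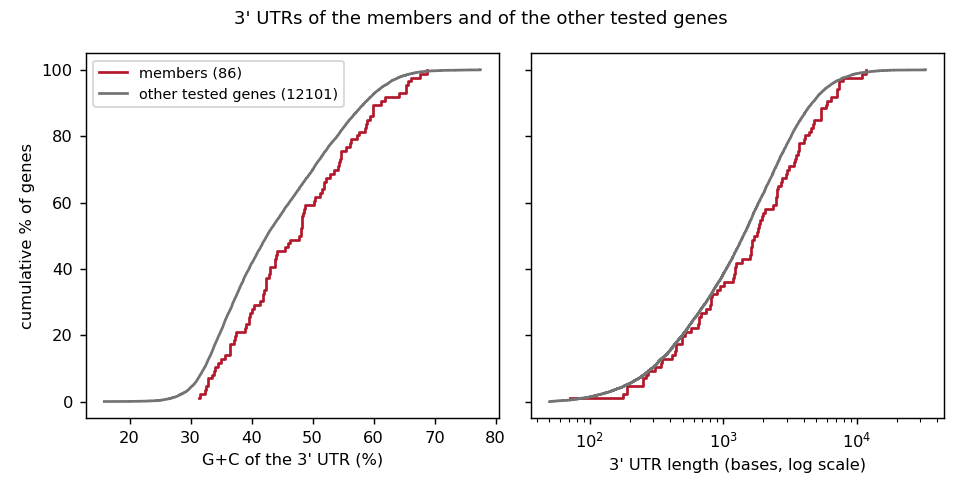
Cumulative share of genes (vertical, %) by G+C content of the 3′ UTR (left, %) and by its length (right, bases, log scale), for 86 members in red and 12101 other tested genes in grey. The red curve lies to the right of the grey curve for G+C through the middle of the range, with medians of 47.9% and 42.5%.

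Words of 7 bases in the 3′ UTR were ranked by a score for genes that hold them lying below other genes. The ranking used the 12101 other tested genes, with UTR length, base composition and level in the model. Of 16220 words, AGGTTTT and CAGGTTT came first, each with a log2 difference of -0.11, and the 3 words after them held the same core GGTTT. The rank did not follow the size of this difference alone, so words with larger differences are not excluded. The targeted transcript IMMT holds CAGGTTT at 2 places of its UTR. Members held AGGTTTT in 23.3% against 22.6% of other genes and CAGGTTT in 20.9% against 16.6%, shares near those of other genes. The sequence of the small interfering RNA is not given in the sources used here, and the part of such words in the reductions was not tested.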

How the data were processed

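The authors sequenced 3′ mRNA libraries (QuantSeq) of PC3 cells, and the deposited table holds whole-number counts, not normalized, for 57736 Ensembl genes in 3 siMic60 and 3 siCTRL libraries. RSEM 1.2.3, DESeq2, hg19 and GRCh37 stand in the submitters' processing notes without a role, and whether counting used strand is not given in the sources used here. Symbols came from the current name table for 39498 genes and from GENCODE 29 for 491 more. The genome build of the references is not that of the counts, so no gene coordinates are given beside the promoter table's own.

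CPM values were counts over the column total times 1000000. Depth was 6644495 to 8779877 counts, and 3 counts over the group stand for 0.126 CPM in siMic60 and 0.125 CPM in siCTRL, which covers counting error only. The 14653 genes that reached 10 counts in 3 or more libraries were fitted by edgeR 4.0.16 in R 4.3.3 (trimmed mean of M values, quasi-likelihood test, Benjamini-Hochberg adjustment over all genes, threshold 0.05, two-sided, no covariates). The script was tested on simulated data. The alternatives were DESeq2 1.42.0, limma 3.58.1, other size factors, other minimum counts, other floors and ceilings of the membership criteria, a replicate block and leaving out libraries.

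The members and the gene lists were chosen with earlier results of these data known. Every library's value is given for the members with the lowest share left, the highest siCTRL means, a place in a gene list or a symbol stem shared with another member. Of the other members, some are given by role with their share left, and not all are named. Relatives were named from the smallest adjusted p in their family, up to 4 a family, and MMP9, CMTM6, the CPEB and BACH relatives and the binding partners were singled out after their values were seen. The labels do not say that replicate numbers pair the samples, and the main fit did not pair them. The deviations of same-numbered libraries from their group means correlated at -0.10, -0.03 and 0.03 across genes. Libraries of unlike number correlated at -0.11 to 0.12. With 3 libraries a group, such values cannot exclude a shared culture or day. Within a group, libraries differed beyond sampling noise (chi-square per degree of freedom 3.54 to 13.5), so each was kept as a sample of its own.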

Additional observations from a re-analysis of the deposited data

How the results depend on the processing

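The number of members followed the thresholds: a siCTRL floor of 1 CPM gave 240 genes, a ceiling of 20% gave 56 and a ceiling of 33% gave 210, against 99. A floor of 10 CPM gave 66, other size factors 93 to 94 and medians over libraries 97, of which 86 were shared with the 99. Without 1 library the count was 82 to 118, and without both libraries numbered 1, a setting chosen after seeing the data, 79. The median share left was 18.8%, and 17.4% to 20.4% without 1 library. A pseudocount of 1 CPM on both means raised it to 23.2%, since it weighs most on genes of low level. Genes called lower numbered 2614 by edgeR, 2470 by DESeq2, 2999 with library totals alone and 2067 to 2334 without 1 library. Those called higher numbered 2588, 2490, 2223 and 2081 to 2300 under the same settings. Family relatives were lower in 114 cases and in 91 to 111 without 1 library, and higher in 62 and 53 to 58. Over the gene lists 68 non-members were lower and 73 higher, and 58 to 64 and 65 to 71 without 1 library. The log2 fold change of IMMT was -3.62, and -3.76 to -3.49 without 1 library. With a replicate block, 2378 genes were lower, 2387 higher and 112 relatives lower, and the samples are known to share only a number. Among the other named genes, 221 pairs of gene and setting lost a call, 5 gained one and 2300 kept their side of the threshold, and no called gene changed direction under the alternatives run. With 20 members under 30 counts in sum over the siMic60 libraries, depth limits how small a remaining level could be read.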
